A study of Homo sapiens with 24 samples.

Results

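HCT116 cells that lack functional p53 were treated with ionising radiation or with the compound APR-246, and the mRNA of both treatments was compared directly. HCT116 is a human colorectal cancer line; the comparison used its p53 Mutant and p53 Null lines, with 2 irradiated libraries and 2 APR-246 libraries in each. Irradiated cells had received 6 Gy without the compound and were collected 72 hours later. APR-246 cells had received 20 uM of the compound without irradiation, and the labels give no collection time for them, so time after treatment and agent cannot be told apart. The 8 libraries are 4 against 4 of the 24 in the series, which also holds solvent and combination groups and a line with wild-type p53 (WT); 4 WT libraries and 4 solvent libraries are used below to place the comparison. All gene ids entered the test, with line as a blocking factor, and each p53 status is a single line, so p53 status and any other difference between lines cannot be told apart. The labels number the replicates without saying whether they are separate cultures, so the p-values measure only the spread between these libraries, which may be technical.

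p53 is a transcription factor that is stabilised by DNA damage and switches on genes of cell cycle arrest, repair and apoptosis. Ionising radiation breaks DNA, and cells that divide with broken chromosomes can form micronuclei, whose DNA can trigger an interferon response through cytosolic DNA sensing. APR-246 (eprenetapopt) is converted to a thiol-reactive product that binds cysteines, among them those of p53 and of glutathione and thioredoxin reductase, so it is known both for refolding mutant p53 and for loading the antioxidant defence governed by the transcription factor NRF2. Stress on amino acid supply or protein folding acts through another factor, ATF4, which drives amino acid synthesis, amino acid transport and tRNA charging.

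The 8 libraries held 54997517 to 57787074 reads assigned to genes, and 3 reads corresponded to 0.0519 to 0.0545 CPM. Epithelial markers summed to 7691 to 14290 CPM after irradiation and 5389 to 9381 CPM under APR-246. Blood markers summed to 1.66 to 2.50 CPM after irradiation and 0.475 to 1.07 CPM under APR-246, with PTPRC, CD3E and HBB under 1 CPM in all 8 libraries. Fibroblast markers summed to 25.6 to 69.1 CPM after irradiation and 11.8 to 42.6 CPM under APR-246, nearly all of it COL1A1, with the other 5 markers under 1 CPM. Endothelial markers, of which only VWF exceeded 1 CPM, summed to 2.83 to 4.12 CPM after irradiation and 1.80 to 2.43 CPM under APR-246. The part of these markers in the results was not tested, and in bulk RNA fewer cells of a type and less RNA per cell cannot be told apart. The libraries also differed in how their values depended on gene GC content, measured as the slope of log2 value on GC percent. Libraries 1 and 2 had slopes of 0.0024 and 0.0200 in irradiated Mutant and -0.0182 and 0.0283 in irradiated Null. Under APR-246 the slopes were -0.0365 and 0.0188 in Mutant and 0.0038 and -0.0185 in Null. Both treatments had slopes of either sign, with the highest in an irradiated and the lowest in an APR-246 library. The first principal component held 41.4% and the second 34.8% of the variance among the 8 libraries. A second model carried this slope as a covariate and is called here "with the GC slope". Its median standard error was 0.14, against 0.19 in the main model, and the slope was measured on the same values it adjusts.

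CPM are assigned reads scaled to a common library total. Values below are CPM rescaled by TMM factors (normalised CPM), and differences are irradiation minus APR-246 on the scale log2(normalised CPM + 0.5), which understates the change of weakly expressed genes. Errors after ± are standard errors of the fitted difference over 4 irradiated and 4 APR-246 libraries unless another comparison is named, and every adjusted p is from limma. Of 18547 genes tested, 14 were higher after irradiation at an adjusted p under 0.05 (0.0755%) and 0 were lower (0%), with Benjamini-Hochberg adjustment. At an unadjusted p under 0.05 there were 1243 higher (6.70%) and 549 lower (2.96%). With the GC slope 1155 genes were higher (6.23%) and 1458 were lower (7.86%), and these included all 14. Every one of the 14 was also free of overlap between the treatments within both lines, which held for 1246 genes upwards (6.72%) and 806 downwards (4.35%) of all tested. The count of 14 rested on single libraries: it was 0 without Mutant irradiation library 1 or 2, Null APR-246 library 1 or 2, or Null irradiation library 2, 11 without Mutant APR-246 library 1, and 41 without Mutant APR-246 library 2 or Null irradiation library 1. With the GC slope all 14 were called in each of the 8 fits that left out a library. Of the 14, 2 were among the 5 genes called without scaling beyond CPM. The fits without a library followed 71 of the named genes called with the GC slope, ISG15 and CEBPB not among them. Of the 71, 53 were called in all 8 of these fits and 18 were lost in at least 1. SLC7A11, DDIT4, MCM6 and MDM2 were among the 18, and their counts are given with their values. edgeR's quasi-likelihood test on the recovered reads called 3 genes, all among the 14, and DESeq2 called 311 higher and 48 lower.

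**Figure D1:**
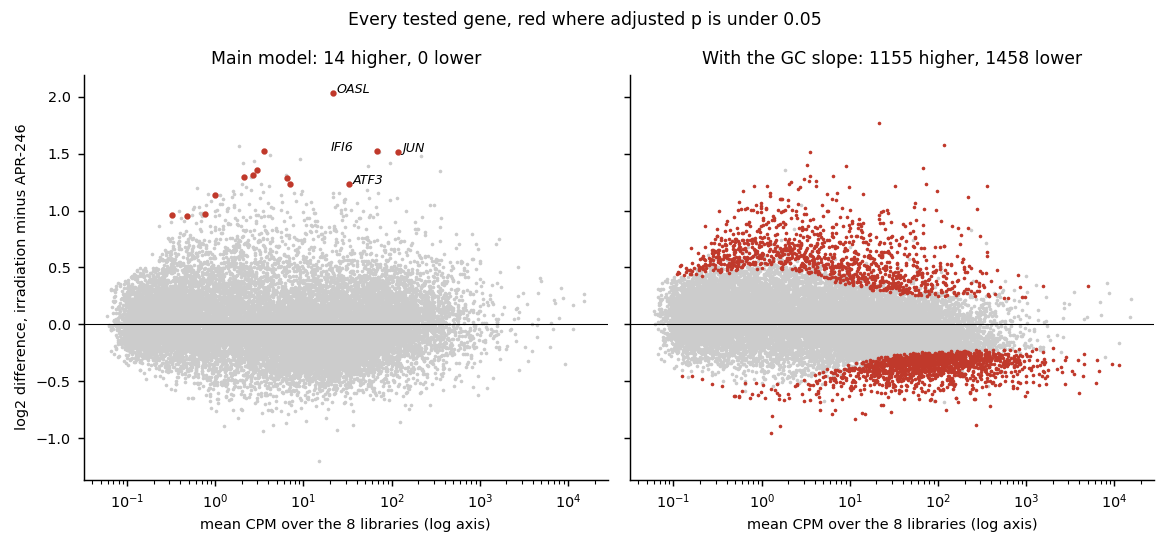
Each point is 1 of the 18547 tested genes, with its mean CPM over the 8 libraries on a log axis across and its log2 difference, irradiation minus APR-246, up the page. In the main model (left) the 14 genes past an adjusted p of 0.05 (red) all lie above 0, and with the GC slope (right) 1155 lie above and 1458 below 0.

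All 14 genes code for proteins, against 75.8% of the genes tested. Of the 14, 13 had a GC content above the tested median of 50.1%, with a median of 56.7%. The part of GC content in these calls was not tested. The standard errors of the 14 genes lay between 0.14 and 0.27.

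Interferon-stimulated genes held 3 of the 14. These genes are switched on when type I or III interferons bind their receptors, and they carry antiviral functions. IFI6, an interferon-induced membrane protein (chromosome 1, 27666061 to 27672218, GRCh38), stood at 132 and 171 CPM in irradiated Mutant and 44.7 and 65.0 CPM in irradiated Null libraries, against 43.6 and 57.7 CPM in APR-246 Mutant and 19.6 and 18.6 CPM in APR-246 Null libraries. All 4 irradiated libraries lay above the APR-246 libraries of their own line, and Mutant was above Null under each treatment. The difference was 1.52 ± 0.18, a 2.87-fold change (adjusted p = 0.0300).

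OASL, a relative of the oligoadenylate synthetases that enhances RNA sensing by RIG-I (chromosome 12, 121019111 to 121039242), had 27.5 and 36.4 CPM in irradiated Mutant and 27.6 and 50.7 CPM in irradiated Null libraries, against 5.46 and 11.9 CPM in APR-246 Mutant and 7.14 and 8.87 CPM in APR-246 Null libraries. The lowest irradiated library stood above the highest APR-246 library. OASL had the largest difference of all genes tested, 2.03 ± 0.27 or 4.09-fold (adjusted p = 0.0425).

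IFI27, another interferon-induced gene (chromosome 14, 94104836 to 94116698), was weakly expressed, with 4.26 and 6.34 CPM in irradiated Mutant and 3.69 and 4.01 CPM in irradiated Null libraries, against 1.29 and 1.52 CPM in APR-246 Mutant and 1.52 and 1.48 CPM in APR-246 Null libraries. Each irradiated library was higher than every APR-246 library (difference 1.35 ± 0.19, adjusted p = 0.0457). IFIT1, which binds viral RNA with an unmethylated cap, had 16.4 and 14.8 CPM in irradiated Mutant and 9.95 and 11.5 CPM in irradiated Null libraries, against 6.71 and 9.35 CPM in APR-246 Mutant and 2.36 and 2.38 CPM in APR-246 Null libraries. The groups did not overlap within a line, but the difference of 1.45 ± 0.23 missed the threshold (adjusted p = 0.0597) and passed it with the GC slope (1.39 ± 0.19, adjusted p = 0.000600).

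Promoters of IFI6 and IFIT1 are shown because interferon response elements are the sites through which interferons switch on these genes. Each window runs from 250 bases before to 50 after the annotated start (RefSeq, GRCh38.p14, gene strand), and capitals mark GAAA repeated after any 2 bases, searched on both strands.
IFI6 (chr1:27672143-27672442, minus strand): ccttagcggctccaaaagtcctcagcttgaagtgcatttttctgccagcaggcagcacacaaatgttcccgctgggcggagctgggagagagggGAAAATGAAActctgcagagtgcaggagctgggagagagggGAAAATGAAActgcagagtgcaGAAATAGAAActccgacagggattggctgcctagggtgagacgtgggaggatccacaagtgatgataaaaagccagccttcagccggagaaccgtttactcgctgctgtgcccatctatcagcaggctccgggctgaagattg
IFIT1 (chr10:89392373-89392672, plus strand): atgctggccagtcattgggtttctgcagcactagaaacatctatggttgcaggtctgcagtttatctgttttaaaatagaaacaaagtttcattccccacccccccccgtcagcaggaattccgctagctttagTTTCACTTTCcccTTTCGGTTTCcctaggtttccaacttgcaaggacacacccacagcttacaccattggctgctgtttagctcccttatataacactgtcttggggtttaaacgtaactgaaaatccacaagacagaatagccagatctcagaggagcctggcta
IFI6 carries 3 matches, which begin 156, 115 and 93 bases before the start, and IFIT1 carries 2 on the opposite strand, which begin 116 and 103 bases before it. The motif was found in 18 of the 26 tested interferon-stimulated genes with a listed promoter (69.2%), in 10 of the 13 among them whose treatments did not overlap within either line (76.9%), and in 3.65% of all 27305 promoters. It was present in 2 of the 11 called genes with a promoter (18.2%). A match describes the letters of the window and says nothing of binding.

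Of the 38 interferon-stimulated genes listed, 34 passed the filter on low values; 33 had a positive difference and 1 a negative one, STAT2 at -0.06. Their median difference was 0.59, against -0.01 over all genes. With the GC slope 21 of the 34 were higher and 0 lower, against 6.23% and 7.86% of all genes. No overlap within either line was seen for 17 upwards, against 6.72% of all genes. The list's median lay between 0.50 and 0.87 over the 31 other settings. ISG15, a ubiquitin-like protein named here after its value was seen, differed by 1.48 ± 0.31 (adjusted p = 0.105, with the GC slope 4.22e-07).

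Against solvent, IFI6 stood at 1.79 after irradiation (adjusted p = 0.00286) and 0.26 under APR-246 (adjusted p = 0.689). OASL stood at 2.05 (adjusted p = 0.00320) and 0.02 (adjusted p = 0.984). The list's median against solvent was 0.48 after irradiation and -0.04 under APR-246, with 13 members higher and 0 lower after irradiation and 1 higher and 2 lower under APR-246 (background 4.56% higher and 3.88% lower, or 8.44% in either direction, of 19331 genes after irradiation, and 1.45% higher and 2.25% lower, or 3.70%, under APR-246). The comparisons with solvent share the same 4 solvent libraries. IFNL1, a type III interferon, had 0.402 and 0.536 CPM in irradiated Mutant and 1.23 and 1.55 CPM in irradiated Null libraries, against 0.270 and 0.0436 CPM in APR-246 Mutant and 0.178 and 0.197 CPM in APR-246 Null libraries (1.02 ± 0.20, adjusted p = 0.0907). Of 14 nucleic acid sensing genes 9 were tested, with a median of 0.10 in the main model and -0.07 with the GC slope. In the latter 2 were higher (background 6.23%). DHX58, a relative of RIG-I, was one of the 2, at 2.68 to 4.22 CPM after irradiation and 1.40 to 1.73 CPM under APR-246 (0.95 ± 0.17, adjusted p = 0.0766; with the GC slope 0.00128), and the adaptor MAVS differed by -0.21 ± 0.16.

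MHC class I genes, which display peptides to T cells and are raised by interferon, had a median of 0.40 over 15 members, with 0 called in the main model. The GC slope gave a median of 0.20, with 4 higher and 0 lower (background 6.23% and 7.86%). HLA-B, a peptide-presenting heavy chain, had 463 and 492 CPM in irradiated Mutant and 232 and 321 CPM in irradiated Null libraries, against 296 and 329 CPM in APR-246 Mutant and 218 and 169 CPM in APR-246 Null libraries. Irradiated libraries were above APR-246 libraries of the same line (0.56 ± 0.20, adjusted p = 0.366; with the GC slope 0.45 ± 0.08, adjusted p = 0.00230). B2M, the light chain, differed by 0.45 ± 0.19 (adjusted p = 0.465), PSMB8, a subunit of the immunoproteasome, by 0.77 ± 0.15 (adjusted p = 0.0816) and HLA-F, a further heavy chain, by 0.49 ± 0.18 (adjusted p = 0.410).

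JUN and ATF3, both transcription factors, were called as well. JUN, a subunit of the AP-1 factor (chromosome 1, 58780788 to 58784327), stood at 209.8 and 182 CPM in irradiated Mutant and 153 and 150.4 CPM in irradiated Null libraries, against 73.6 and 54.2 CPM in APR-246 Mutant and 61.5 and 52.7 CPM in APR-246 Null libraries. The lowest irradiated library, at 150.4 CPM, stood above the highest APR-246 library, at 73.6 CPM. JUN differed by 1.51 ± 0.17 or 2.85-fold (adjusted p = 0.0289). ATF3, a stress-induced factor that pairs with JUN (chromosome 1, 212565334 to 212620777), had 35.9 and 32.3 CPM in irradiated Mutant and 54.8 and 59.4 CPM in irradiated Null libraries, against 13.2 and 13.5 CPM in APR-246 Mutant and 25.4 and 25.7 CPM in APR-246 Null libraries. Both irradiated groups were above the APR-246 libraries of either line, and Null was above Mutant throughout. Its difference was 1.23 ± 0.14 or 2.35-fold (adjusted p = 0.0289).

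FOS, the AP-1 partner of JUN, had 39.1 and 33.2 CPM in irradiated Mutant and 36.9 and 31.6 CPM in irradiated Null libraries, against 14.5 and 18.8 CPM in APR-246 Mutant and 16.4 and 19.8 CPM in APR-246 Null libraries. No irradiated library overlapped an APR-246 library, yet the difference of 1.00 ± 0.16 missed the threshold (adjusted p = 0.0597; with the GC slope 8.73e-05). EGR1, a zinc finger factor of the same early response, ranged over 315 to 432 CPM after irradiation and 146 to 221 CPM under APR-246 (1.05 ± 0.21, adjusted p = 0.0882; with the GC slope 0.00128). In the list of 15 ERK feedback genes the median was 0.23, with 0 called in the main model. With the GC slope 2 were higher and 1 lower (background 6.23% and 7.86%). DUSP5, a phosphatase that inactivates ERK, differed by 0.78 ± 0.27 (adjusted p = 0.354) and EPHA2, a receptor kinase, by 0.56 ± 0.25 (adjusted p = 0.514).

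Set against solvent, 3 of the called genes stood below it under APR-246. JUN was at 0.08 after irradiation (adjusted p = 0.863) and fell by 1.43 under APR-246 (adjusted p = 0.00866). ATF3 fell by 0.73 after irradiation (adjusted p = 0.0429) and by 1.96 under APR-246 (adjusted p = 0.000850). DLL4, a Notch ligand, was at 0.44 (adjusted p = 0.106) and fell by 0.84 under APR-246 (adjusted p = 0.0128). The other 11 called genes were higher than solvent after irradiation, and in the main model none of them was called against solvent under APR-246. With the GC slope WNT11, given below, was higher than solvent under APR-246 as well (0.65 ± 0.17, adjusted p = 0.00582). These positions share libraries with the comparison that chose the genes and are given as a description.

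**Figure D2:**
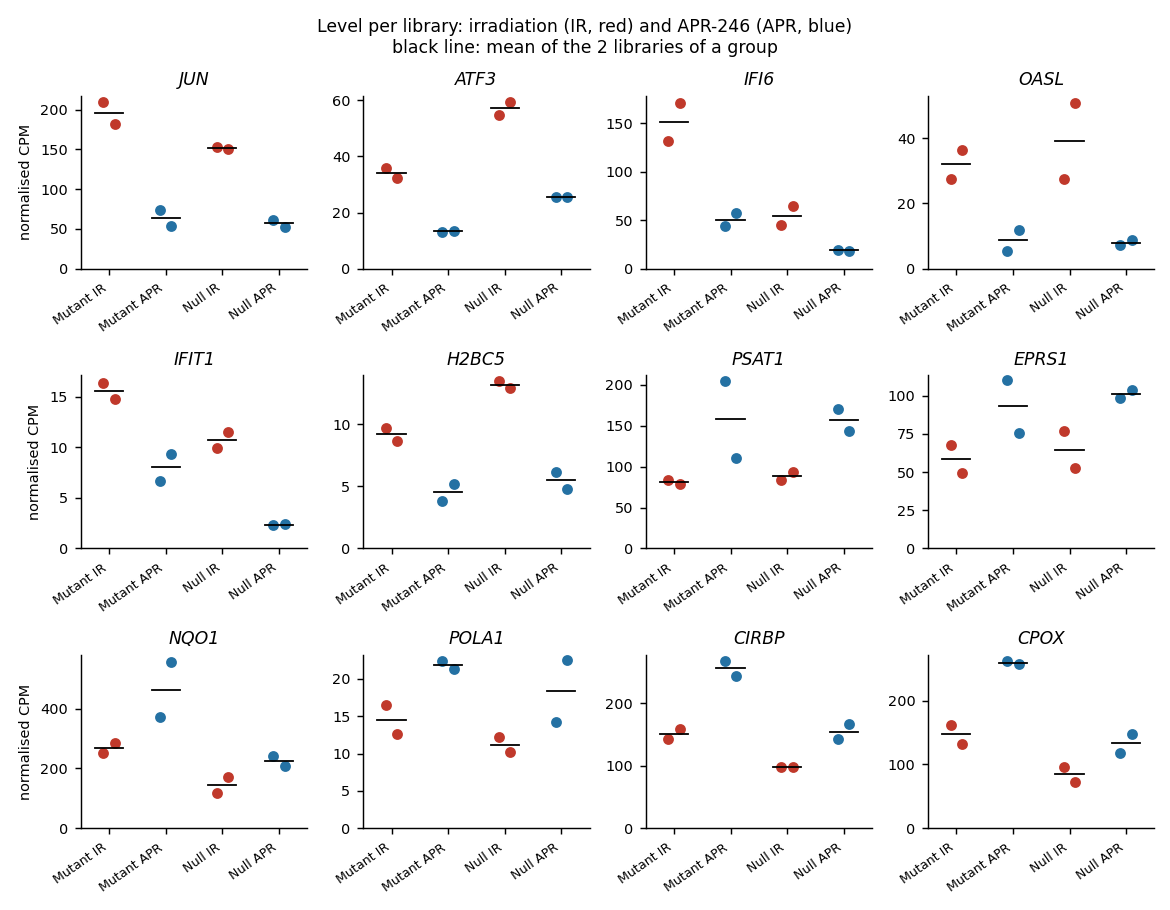
Normalised CPM per library (vertical axis, from 0) of 12 genes in irradiated (red) and APR-246 (blue) libraries of Mutant and Null; points are libraries and black lines are means of 2. The 4 irradiated libraries of JUN and of OASL lie above all 4 APR-246 libraries, and those of EPRS1, CIRBP and CPOX lie below the APR-246 libraries of their line.

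NF-kB targets and secreted inflammatory factors, which recruit and stimulate leukocytes, had a median of 0.44 over the 21 of 28 that passed the filter. None was called in the main model. With the GC slope 10 were higher and 1 lower (background 6.23% and 7.86%). CXCL8, a neutrophil chemokine, was present at 2.31 and 3.22 CPM in irradiated Mutant and 1.42 and 2.47 CPM in irradiated Null libraries, against 1.05 and 1.13 CPM in APR-246 Mutant and 0.571 and 0.492 CPM in APR-246 Null libraries. Irradiated libraries were higher in each line (1.12 ± 0.19, adjusted p = 0.0691; with the GC slope 0.00128). CXCL1, a related chemokine, differed by 1.06 ± 0.19 (adjusted p = 0.0744), HBEGF, an EGF receptor ligand, by 0.91 ± 0.15 (adjusted p = 0.0655) and MMP1, a collagenase, by 0.97 ± 0.16 (adjusted p = 0.0655). Each of these 3 passed with the GC slope. Against solvent the list's median was -0.26 after irradiation and -0.77 under APR-246: CXCL8 stood at -0.26 (adjusted p = 0.397) and -1.37 (adjusted p = 0.00209), and CXCL1 at -0.51 (adjusted p = 0.110) and -1.57 (adjusted p = 0.00141).

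The remaining called genes came from developmental signalling and other functions. WNT11, a WNT ligand (chromosome 11, 76186325 to 76210736), had 7.42 and 6.84 CPM in irradiated Mutant and 3.94 and 3.95 CPM in irradiated Null libraries, against 2.04 and 2.66 CPM in APR-246 Mutant and 0.714 and 1.25 CPM in APR-246 Null libraries. Irradiation was higher in each line (1.52 ± 0.19, adjusted p = 0.0300). DLL4 (chromosome 15, 40929333 to 40939073) had 8.52 and 8.04 CPM in irradiated Mutant and 10.1 and 10.5 CPM in irradiated Null libraries, against 3.24 and 2.62 CPM in APR-246 Mutant and 4.68 and 3.70 CPM in APR-246 Null libraries (1.28 ± 0.17, adjusted p = 0.0425), and HES7, a repressor of the Notch pathway, had 1.03 to 1.32 CPM after irradiation and 0.303 to 0.426 CPM under APR-246 (0.97 ± 0.14, adjusted p = 0.0459). Both Notch pathway genes were without overlap over all 8 libraries.

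APOE, an apolipoprotein of lipid transport, had 8.85 and 8.58 CPM in irradiated Mutant and 10.3 and 12.6 CPM in irradiated Null libraries, against 2.82 and 3.57 CPM in APR-246 Mutant and 4.82 and 5.03 CPM in APR-246 Null libraries. The irradiated libraries were all higher (1.23 ± 0.17, adjusted p = 0.0452). CREB3L1, a factor held in the endoplasmic reticulum membrane, differed by 1.31 ± 0.19 (adjusted p = 0.0457), and LCK, a tyrosine kinase best known from T cells, by 1.30 ± 0.18 (adjusted p = 0.0457). LCK was at 0.995 and 1.30 CPM in irradiated Mutant and 4.59 and 6.31 CPM in irradiated Null libraries, against 0.270 and 0.174 CPM in APR-246 Mutant and 1.93 and 1.54 CPM in APR-246 Null libraries. Null exceeded Mutant under both treatments. The T cell marker CD3E was under 1 CPM in all 8 libraries.

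LRRC15 (0.96 ± 0.14, adjusted p = 0.0457), BARX2, a homeobox factor (0.95 ± 0.14, adjusted p = 0.0457), and PRR20G (1.13 ± 0.16, adjusted p = 0.0457) stood at low levels: LRRC15 ranged over 0.498 to 0.768 CPM after irradiation and 0 to 0.107 CPM under APR-246, BARX2 over 0.613 to 1.07 CPM after irradiation and 0.0436 to 0.262 CPM under APR-246 and PRR20G over 1.33 to 1.92 CPM after irradiation and 0.328 to 0.535 CPM under APR-246. LRRC15 was at 0 reads in 1 APR-246 library. PRR20G has similar copies elsewhere in the genome, so its count is uncertain.

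Below the threshold, the genes with the smallest p among those of at least 5 CPM were NGFR, NOCT, CPA4 and OTUD1 together with FOS and IFIT1. NGFR, a neurotrophin receptor, had 108 and 120.5 CPM in irradiated Mutant and 69.0 and 94.9 CPM in irradiated Null libraries, against 44.6 and 61.1 CPM in APR-246 Mutant and 37.4 and 33.2 CPM in APR-246 Null libraries (1.15 ± 0.17, adjusted p = 0.0531). NOCT, an NADPH phosphatase under circadian control, differed by 1.18 ± 0.18 (adjusted p = 0.0552), CPA4, a carboxypeptidase, by 0.92 ± 0.14 (adjusted p = 0.0557), and OTUD1, a deubiquitinase, by 1.03 ± 0.16 (adjusted p = 0.0562). All 6 passed with the GC slope.

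Replication-dependent histones had the highest median of the 29 lists, 0.70 over the 9 of 13 members that passed the filter. Their main transcripts end in a stem loop without a poly(A) tail, and oligo(dT) selection recovers the polyadenylated share. H2BC5 had 9.71 and 8.64 CPM in irradiated Mutant and 13.4 and 12.9 CPM in irradiated Null libraries, against 3.84 and 5.21 CPM in APR-246 Mutant and 6.18 and 4.79 CPM in APR-246 Null libraries. H2BC12 had 23.7 and 26.8 CPM in irradiated Mutant and 28.9 and 41.8 CPM in irradiated Null libraries, against 9.59 and 18.0 CPM in APR-246 Mutant and 13.1 and 12.6 CPM in APR-246 Null libraries. Irradiated libraries of both genes were above the APR-246 libraries of their line. The differences were 1.08 ± 0.18 for H2BC5 (adjusted p = 0.0604) and 1.15 ± 0.22 for H2BC12 (adjusted p = 0.0802). H2BC21 differed by 1.22 ± 0.20 (adjusted p = 0.0597) and the linker histone H1-2 by 1.01 ± 0.23 (adjusted p = 0.145). None of the 9 was called in the main model, 5 were higher with the GC slope (background 6.23%), and 5 had no overlap upwards (background 6.72%). APR-246 Mutant library 2 stood apart in this list, at 0.05 on the log2 scale relative to the line mean where the other 3 APR-246 libraries lay between -0.55 and -0.43.

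**Figure D3:**
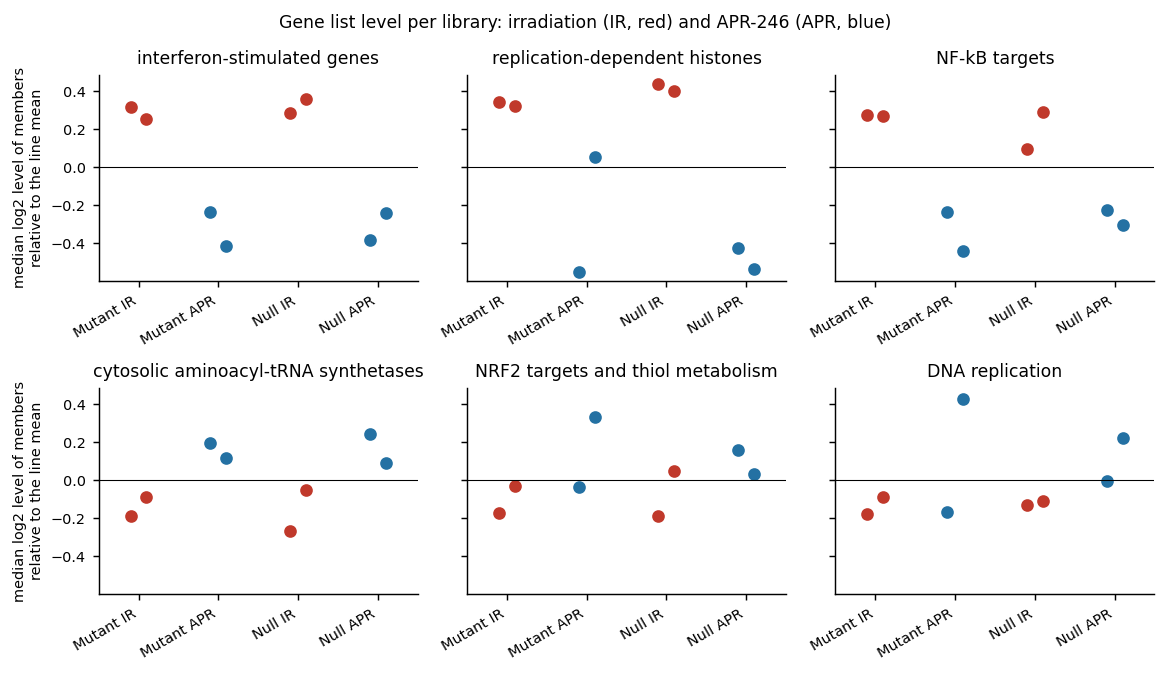
Median over the members of 6 gene lists of the log2 level in each library, relative to the mean of the 4 libraries of its line (vertical axis), for irradiated (red) and APR-246 (blue) libraries. Interferon-stimulated genes lie between 0.25 and 0.36 in irradiated and between -0.42 and -0.24 in APR-246 libraries, and aminoacyl-tRNA synthetases lie below 0 in all irradiated and above 0 in all APR-246 libraries.

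Cytosolic aminoacyl-tRNA synthetases had the lowest median of the lists. These enzymes load amino acids onto tRNAs, and many of their genes are driven by ATF4. All 18 were tested; 17 had a negative difference and 1 a positive one, with a median of -0.36. None was called in the main model. With the GC slope 12 were lower and 0 higher, against 7.86% lower among all genes, and 6 were without overlap downwards, against 4.35%. EPRS1, which loads glutamate and proline, had 68.0 and 49.4 CPM in irradiated Mutant and 76.9 and 52.5 CPM in irradiated Null libraries, against 110.3 and 75.7 CPM in APR-246 Mutant and 98.7 and 104 CPM in APR-246 Null libraries. Irradiation was lower within each line (-0.66 ± 0.20, adjusted p = 0.272; with the GC slope -0.49 ± 0.09, adjusted p = 0.00194). GARS1, for glycine, differed by -0.56 ± 0.18 (with the GC slope adjusted p = 0.00233), TARS1, for threonine, by -0.54 ± 0.17 (with the GC slope adjusted p = 0.00310) and IARS1, for isoleucine, by -0.49 ± 0.17 (with the GC slope adjusted p = 0.00117). In the main model their adjusted p-values were 0.294, 0.298 and 0.332. The list's median lay between -0.40 and -0.25 over the 31 other settings.

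Promoters of IARS1 and TARS1 are shown because both hold a match to TGATGCAA, the letters of an ATF4 site, near their start. The windows are as above, and capitals mark the match, which lies on the opposite strand in both.
IARS1 (chr9:92293648-92293947, minus strand): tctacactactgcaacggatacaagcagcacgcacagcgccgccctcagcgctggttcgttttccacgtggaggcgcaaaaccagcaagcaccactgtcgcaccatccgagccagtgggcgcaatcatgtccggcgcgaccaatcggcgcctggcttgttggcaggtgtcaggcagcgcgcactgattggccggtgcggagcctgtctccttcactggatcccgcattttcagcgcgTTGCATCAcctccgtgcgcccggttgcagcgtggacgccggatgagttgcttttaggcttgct
TARS1 (chr5:33440715-33441014, plus strand): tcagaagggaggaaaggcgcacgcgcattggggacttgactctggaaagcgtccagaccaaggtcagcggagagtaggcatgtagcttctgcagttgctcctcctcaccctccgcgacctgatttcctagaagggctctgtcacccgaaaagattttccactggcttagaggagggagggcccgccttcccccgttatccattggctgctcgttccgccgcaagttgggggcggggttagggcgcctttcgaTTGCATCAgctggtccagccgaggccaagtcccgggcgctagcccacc
Of the 14 synthetase genes with a listed promoter, 6 held the motif on either strand (42.9%), against 0.923% of all promoters. The other ATF4 targets held it in 1 of 23 (4.35%).

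Of 30 ATF4 targets 28 were tested. Their median was -0.22 (-0.24 with the GC slope), with 9 positive and 19 negative differences, and 1 call in the main model, ATF3. With the GC slope 4 were higher, ATF3, DDIT3, DDIT4 and CEBPB, and 10 were lower (background 6.23% and 7.86%). In that model the median was -0.01 without Null irradiation library 1 and -0.35 without APR-246 Mutant library 2. DDIT3, the pro-apoptotic factor CHOP, had 10.5 and 9.48 CPM in irradiated Mutant and 18.6 and 12.1 CPM in irradiated Null libraries, against 6.37 and 2.85 CPM in APR-246 Mutant and 8.53 and 7.80 CPM in APR-246 Null libraries. Irradiated libraries were higher in each line (0.98 ± 0.24, adjusted p = 0.170; with the GC slope 1.20 ± 0.14, adjusted p = 8.73e-05). DDIT4, an inhibitor of mTORC1, differed by 0.31 ± 0.16 (adjusted p = 0.598; with the GC slope 0.0265, called in 3 of 8 fits without 1 library).

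Of the 10 called lower with the GC slope, PSAT1 and SLC7A11 had the most negative differences. PSAT1, an enzyme of serine synthesis, had 83.3 and 78.9 CPM in irradiated Mutant and 83.9 and 93.5 CPM in irradiated Null libraries, against 205 and 110.3 CPM in APR-246 Mutant and 171 and 144 CPM in APR-246 Null libraries. Every irradiated library was below every APR-246 library (-0.85 ± 0.21, adjusted p = 0.170; with the GC slope -0.75 ± 0.14, adjusted p = 0.00569). SLC7A11, the cystine importer that feeds glutathione synthesis, had 9.12 and 6.26 CPM in irradiated Mutant and 9.06 and 5.58 CPM in irradiated Null libraries, against 42.2 and 8.83 CPM in APR-246 Mutant and 17.4 and 14.3 CPM in APR-246 Null libraries. APR-246 Mutant library 1 stood far above library 2 of the same group. Its difference, -1.20 ± 0.39, was the most negative of all genes tested, with an adjusted p of 0.316 (0.0481 with the GC slope, called in 4 of 8 fits and lost without Mutant irradiation library 1 or 2, Null APR-246 library 1 or Null irradiation library 1). ASNS, asparagine synthetase, differed by -0.42 ± 0.28 (adjusted p = 0.671) and CHAC1, which degrades glutathione, by 0.09 ± 0.18 (adjusted p = 0.900).

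ATF4 targets stood below solvent under both treatments. The median against solvent was -1.81 after irradiation, with 21 members lower and 0 higher, and -1.60 under APR-246, with 19 lower and 0 higher. Among all genes 3.88% were lower after irradiation and 2.25% under APR-246. DDIT4 fell by 2.81 after irradiation (adjusted p = 0.000105) and by 3.12 under APR-246 (adjusted p = 3.02e-05), and CHAC1 fell by 2.64 (adjusted p = 0.000816) and by 2.73 (adjusted p = 0.00124). For the synthetases the medians against solvent were -1.0 and -0.54, with 10 and 5 lower against the same shares of all genes. The solvent libraries are shared by both comparisons.

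NRF2 targets and thiol enzymes, which supply glutathione and thioredoxin and export conjugates, had a median of -0.19 over 27 members (-0.33 with the GC slope), with 6 positive and 21 negative. None was called in the main model. With the GC slope 14 were lower and 0 higher (background 7.86% and 6.23%), and 7 were without overlap downwards (background 4.35%). NQO1, a quinone reductase (chromosome 16, 69706996 to 69726951), had 252 and 284 CPM in irradiated Mutant and 119 and 170.4 CPM in irradiated Null libraries, against 371 and 556 CPM in APR-246 Mutant and 242 and 208 CPM in APR-246 Null libraries. Irradiated libraries were below the APR-246 libraries of their line (-0.71 ± 0.21, adjusted p = 0.264; with the GC slope -0.88 ± 0.07, adjusted p = 2.75e-06). ABCC2, an exporter of glutathione conjugates, ranged over 9.45 to 19.3 CPM after irradiation and 20.7 to 41.6 CPM under APR-246 (-0.93 ± 0.23, adjusted p = 0.170; with the GC slope 0.000979). PIR, an NRF2-induced iron protein, differed by -0.57 ± 0.16 (with the GC slope adjusted p = 0.00371) and GCLM, a subunit of the rate-limiting enzyme of glutathione synthesis, by -0.45 ± 0.15 (with the GC slope adjusted p = 0.0109).

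TXNRD1, thioredoxin reductase, differed by -0.43 ± 0.23 (adjusted p = 0.601) and HMOX1, heme oxygenase, by 0.01 ± 0.24 (adjusted p = 0.990). Neither passed with the GC slope (0.0825 and 0.150). Against solvent, the list's median was -0.07 after irradiation and 0.16 under APR-246. After irradiation 1 was higher and 4 lower (background 4.56% and 3.88%). Under APR-246 0 were higher and 1 lower (background 1.45% and 2.25%). With the GC slope 2 were higher and 11 lower after irradiation (background 16.9% and 18.7%). Under APR-246 8 were higher and 7 lower with the GC slope (background 14.8% and 15.9%). The antioxidant response element TGACNNNGC was found in 6 of 18 promoters of the list (33.3%) and in 13.6% of all. In APR-246 Mutant library 2 the list stood at 0.34 relative to the line mean, where the other 3 APR-246 libraries lay between -0.03 and 0.16, and without that library its median difference was -0.02.

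DNA replication genes had a median of -0.21 over 37 members (-0.32 with the GC slope), with 33 negative and 4 positive. None was called in the main model, and 16 were lower and 0 higher with the GC slope (background 7.86% and 6.23%). POLA1, the catalytic subunit of the primase-polymerase, had 16.5 and 12.6 CPM in irradiated Mutant and 12.2 and 10.2 CPM in irradiated Null libraries, against 22.4 and 21.4 CPM in APR-246 Mutant and 14.2 and 22.5 CPM in APR-246 Null libraries. Irradiation was lower within each line (-0.63 ± 0.18, adjusted p = 0.261; with the GC slope 0.0114). MCM6 and MCM4, subunits of the replicative helicase, differed by -0.39 ± 0.17 and -0.34 ± 0.19 (adjusted p = 0.481 and 0.623), and TYMS, thymidylate synthase, by -0.39 ± 0.18 (adjusted p = 0.509). MCM6 and TYMS passed with the GC slope (0.0227 and 0.00243), MCM4 did not (0.0673), and MCM6 was called in 2 of 8 fits without 1 library. Both treatments were above solvent, with medians of 0.80 after irradiation (12 higher, 0 lower) and 0.98 under APR-246 (18 higher, 0 lower). Among all genes 4.56% were higher and 3.88% lower after irradiation, and 1.45% and 2.25% under APR-246. APR-246 Mutant library 2 stood at 0.43 relative to its line mean and library 1 of the same group at -0.17, so the treatments overlapped in Mutant. Without APR-246 Mutant library 2 the median difference between the treatments was -0.08.

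No single gene was called lower in the main model, and 549 were lower at an unadjusted p under 0.05. Of the 12 genes with the smallest p among those of at least 5 CPM, all 12 passed with the GC slope. CIRBP and RBM3, a pair of RNA-binding proteins induced by mild cold, were 2 of them. CIRBP had 143 and 159 CPM in irradiated Mutant and 97.5 and 99.0 CPM in irradiated Null libraries, against 269 and 244 CPM in APR-246 Mutant and 143 and 167 CPM in APR-246 Null libraries. RBM3 had 79.9 and 80.4 CPM in irradiated Mutant and 59.7 and 65.0 CPM in irradiated Null libraries, against 122 and 124 CPM in APR-246 Mutant and 95.1 and 109.8 CPM in APR-246 Null libraries. Irradiated libraries were lower within each line for both genes. The differences were -0.71 ± 0.16 for CIRBP (adjusted p = 0.147; with the GC slope 0.000119) and -0.66 ± 0.15 for RBM3 (adjusted p = 0.132; with the GC slope 0.000134).

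HFE, which limits iron uptake, differed by -0.69 ± 0.16 (adjusted p = 0.150). CPOX, an enzyme of heme synthesis, had 162 and 132 CPM in irradiated Mutant and 96.8 and 72.1 CPM in irradiated Null libraries, against 262 and 257 CPM in APR-246 Mutant and 119 and 148 CPM in APR-246 Null libraries. APR-246 libraries were higher in each line (-0.74 ± 0.18, adjusted p = 0.170; with the GC slope 0.000385), and against solvent CPOX stood at 0.67 after irradiation (adjusted p = 0.0631) and 1.41 under APR-246 (adjusted p = 0.00333). MRRF, the mitochondrial ribosome recycling factor, differed by -0.56 ± 0.15 (adjusted p = 0.197). Among the rest were PSAT1 and ABCC2, given above, ZBTB12, a zinc finger protein (-0.87 ± 0.18, adjusted p = 0.0982), UBE4B, a ubiquitin chain elongation factor (-0.52 ± 0.14, adjusted p = 0.212), NT5DC1 (-0.59 ± 0.16, adjusted p = 0.210) and SLC35E2B (-0.60 ± 0.15, adjusted p = 0.175). SLC35E2B has a near-identical neighbour, so its count is uncertain.

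**Figure D4:**
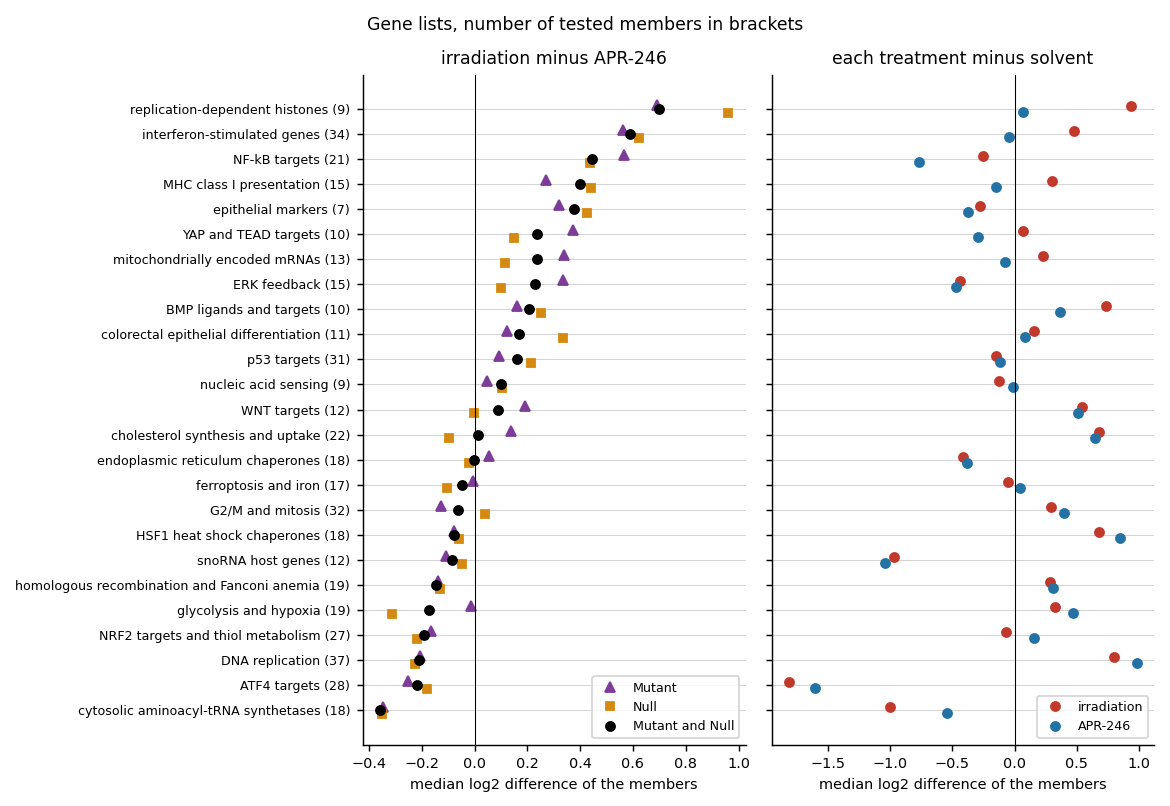
Median log2 difference of the tested members of 25 gene lists, irradiation minus APR-246 (left; Mutant, Null and both) and each treatment minus solvent in Mutant and Null (right; irradiation red, APR-246 blue). Histones (0.70), interferon-stimulated genes (0.59) and NF-kB targets (0.44) stand highest and aminoacyl-tRNA synthetases (-0.36) lowest on the left, while on the right both treatments lie on the same side of 0 for ATF4 targets (-1.81 and -1.60) and DNA replication (0.80 and 0.98).

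None of the remaining lists had a call in the main model. Their counts with the GC slope stand against 6.23% higher and 7.86% lower among all genes. YAP and TEAD targets had a median of 0.24 over 10 members (0.40 with the GC slope), with 6 higher and 0 lower with the GC slope. CCN1 and CCN2, matricellular proteins, differed by 0.96 ± 0.17 and 0.86 ± 0.16 (with the GC slope adjusted p = 0.000150 and 0.000297). Glycolysis and hypoxia genes had a median of -0.17 over 19, with 1 higher and 7 lower with the GC slope. ADM, a hypoxia-induced peptide hormone, differed by 0.70 ± 0.18 and PFKFB4, a regulator of glycolysis, by -0.62 ± 0.20 (with the GC slope adjusted p = 0.00645 and 0.00112).

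BMP ligands and targets had a median of 0.21 over 10 members, with 3 higher and 0 lower with the GC slope, among them ID2 (0.64 ± 0.19) and SMAD7, an inhibitor of the pathway (0.72 ± 0.21). The ligand BMP4 had 49.5 and 47.5 CPM in irradiated Mutant and 126 and 115 CPM in irradiated Null libraries, against 40.2 and 61.3 CPM in APR-246 Mutant and 119.9 and 117 CPM in APR-246 Null libraries (-0.00 ± 0.17). Against solvent it rose by 2.03 after irradiation (adjusted p = 0.000345) and by 2.03 under APR-246 (adjusted p = 0.000579). CA2, a carbonic anhydrase of colonic epithelium, rose against solvent by 2.13 and 1.60 (adjusted p = 0.000328 and 0.00148). Its difference between the treatments was 0.53 ± 0.17 (adjusted p = 0.296; with the GC slope 0.00891). Colorectal differentiation genes as a list had a median of 0.17 over 11, with 3 higher and 0 lower with the GC slope.

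G2/M and mitosis genes had a median of -0.06 over 32, with 0 higher and 2 lower with the GC slope. CCNB1, the mitotic cyclin, had 162 and 176 CPM in irradiated Mutant and 169.5 and 198 CPM in irradiated Null libraries, against 144 and 234 CPM in APR-246 Mutant and 177 and 191 CPM in APR-246 Null libraries, and the treatments overlapped in both lines (-0.06 ± 0.20). CDC25C, the phosphatase that starts mitosis, differed by -0.09 ± 0.16, and MKI67, a proliferation marker, by -0.40 ± 0.21. Homologous recombination and Fanconi anemia genes had a median of -0.15 over 19 (-0.08 with the GC slope), with 0 higher and 1 lower with the GC slope. Heat shock chaperones had a median of -0.08 over 18, and -0.18 with the GC slope (1 higher, 5 lower). Ferroptosis and iron genes had -0.05 over 17, and -0.20 with the GC slope (1 higher, 3 lower). Metallothioneins had -0.05 over 4, and -0.29 with the GC slope (0 higher, 2 lower). Cholesterol genes had 0.01 over 22, and -0.03 with the GC slope (0 higher, 4 lower). Endoplasmic reticulum chaperones had medians within 0.05 of 0 in both models, with 0 called. WNT targets had 0.09 over 12, and 0.05 with the GC slope (2 higher, 0 lower), and snoRNA host genes -0.09 over 12, and -0.02 with the GC slope (1 higher, 0 lower). Mitochondrially encoded mRNAs were positive in 13 of 13 with a median of 0.24 (1 and 0), and they are not independent, since one genome encodes them all. Epithelial markers had a median of 0.38 over 7, and 0.10 with the GC slope (1 higher, 0 lower). This median was 0.056 with the slope without Null APR-246 library 1. Blood, fibroblast and endothelial markers had medians of 0.44, 0.08 and -0.02, over 3 tested in each list. With the GC slope 2, 1 and 1 of them were higher and 0 lower. Their highest differences were 1.00 for CD14, 0.45 for COL1A1 and 0.70 for VWF, and 1, 0 and 2 members had negative differences.

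Mutant and Null were compared with each other next, by the difference of their treatment differences. It had 0 calls in limma (210 genes at an unadjusted p under 0.05, 1 call by DESeq2, 1 with the GC slope), and within Mutant alone and Null alone limma also called 0 genes (816 and 830 at an unadjusted p under 0.05; 29 by DESeq2 in each; 1190 and 930 with the GC slope). IFI6 differed by 1.57 ± 0.28 in Mutant and 1.47 ± 0.28 in Null, and JUN by 1.62 ± 0.26 and 1.40 ± 0.26. IFIT1 differed by 0.93 ± 0.26 in Mutant and 1.97 ± 0.26 in Null, a difference of -1.03 ± 0.37. EGR1 differed by 1.42 ± 0.28 and 0.68 ± 0.28, a difference of 0.73 ± 0.40. Neither of these differences between lines was called. The median standard error of such a difference was 0.40, against 0.19 for the main comparison. The medians in Mutant and Null were 0.56 and 0.62 for interferon-stimulated genes, -0.35 and -0.35 for synthetases, and -0.16 and -0.22 for NRF2 targets.

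WT cells received the same treatments, and the last comparison set the mean difference of Mutant and Null against that of WT. Limma called 0 of 19303 genes (462 at an unadjusted p under 0.05; 1 by DESeq2), and within WT it called 17 higher (0.0881%) and 0 lower. With the GC slope 7 genes were higher in Mutant and Null than in WT (0.0363%) and 25 lower (0.130%). Leaving out WT irradiation library 1 moved the count of the main model to 17.

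p53 targets had a median of 0.16 in Mutant and Null and 0.82 in WT, over 31 genes. The GC slope moved the first of these medians to 0.25. In Mutant and Null 7 were higher and 3 lower with the GC slope, against 6.23% and 7.86% of all genes, so the 3 lower were near the general share. In WT 22 were higher and 0 lower with the GC slope, against 4.03% and 3.75% of all genes. In the main model 0 were called in Mutant and Null and 1 in WT. The difference from WT was called for 5 of them with the GC slope, all lower: TP53I3 (-1.81 ± 0.20, adjusted p = 0.00358), PLK2 (-1.31 ± 0.15, adjusted p = 0.00358), PIDD1 (-1.04 ± 0.18, adjusted p = 0.0340), FDXR (-0.96 ± 0.15, adjusted p = 0.0185) and CYFIP2 (-0.83 ± 0.14, adjusted p = 0.0340). These 5 were named after their values were seen, and in the main model their differences from WT were not called.

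CDKN1A encodes p21, a p53-induced brake on the cell cycle, and had 179 and 199 CPM in irradiated Mutant and 233 and 355 CPM in irradiated Null libraries, against 105 and 106 CPM in APR-246 Mutant and 171 and 128 CPM in APR-246 Null libraries. Irradiated libraries were above APR-246 libraries in each line (0.90 ± 0.20, adjusted p = 0.121; with the GC slope 0.79 ± 0.10, adjusted p = 0.000186). In WT the difference was 1.84 ± 0.33, and the difference from WT was -0.94 ± 0.40 (with the GC slope -0.86 ± 0.19, adjusted p = 0.0815). Against solvent CDKN1A was at -0.26 after irradiation (adjusted p = 0.567) and fell by 1.16 under APR-246 (adjusted p = 0.0362). With the GC slope it was called lower than solvent under both treatments. It stood at -0.53 after irradiation (adjusted p = 0.000575) and -1.26 under APR-246 (adjusted p = 1.71e-08). MDM2, the ubiquitin ligase of p53, differed by 0.07 ± 0.27 (adjusted p = 0.956; with the GC slope 0.38 ± 0.10, adjusted p = 0.0146, called in 5 of 8 fits without 1 library), GADD45A, a stress sensor, by 0.70 ± 0.20 (with the GC slope adjusted p = 1.67e-05) and GDF15, a stress hormone, by 0.85 ± 0.27 (with the GC slope adjusted p = 0.118).

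Interferon-stimulated genes had medians of 0.59 in Mutant and Null and 0.55 in WT, and the difference from WT was called for 0 of 34 in either model. Among all genes it was called for 0 in the main model and for 0.0363% higher and 0.130% lower with the GC slope. At such shares a count of 0 does not set a list of this size apart from all genes. IFI6 and OASL differed by 2.13 and 1.97 in WT. ATF4 targets had medians of -0.22 in Mutant and Null and -0.89 in WT. The difference was called for 0 of 28 members, which at the same shares does not set this list apart either. WT APR-246 library 1 stood apart in this group. DDIT3 had 6.32 and 4.05 CPM in irradiated WT libraries, against 45.4 and 2.40 CPM in WT APR-246 libraries, and differed by -1.05 ± 0.96 in WT (-0.27 ± 1.06 with the GC slope). SLC7A11 had 6.24 and 2.75 CPM in irradiated WT libraries, against 77.0 and 6.19 CPM in WT APR-246 libraries. PSAT1 had 73.0 and 88.9 CPM in irradiated WT libraries, against 372 and 76.0 CPM in WT APR-246 libraries. In library 2 DDIT3 lay below both irradiated WT libraries and SLC7A11 and PSAT1 lay between them. Outside the p53 list, the difference from WT was called with the GC slope for CPA4 (-1.33 ± 0.15, adjusted p = 0.00358), CDC25C (1.23 ± 0.19, adjusted p = 0.0185) and DKK1, a secreted WNT inhibitor (-1.01 ± 0.17, adjusted p = 0.0340). DKK1 differed by 0.33 ± 0.18 in Mutant and Null (adjusted p = 0.608; with the GC slope 0.00803) and by 1.34 ± 0.27 in WT.

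**Figure D5:**
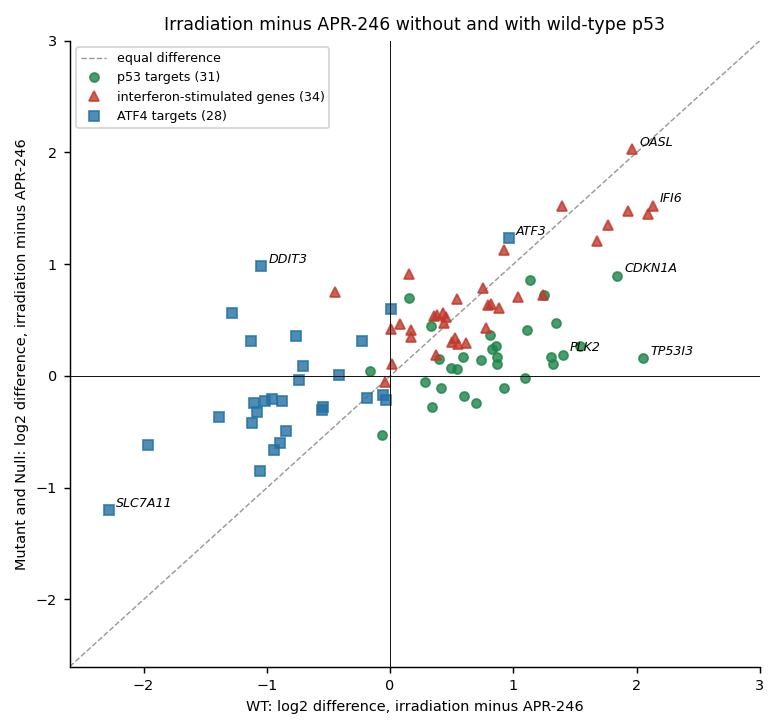
Each point is a gene of 3 lists, with its log2 difference, irradiation minus APR-246, in Mutant and Null up the page and in WT across; the dashed line marks equal differences. The medians in Mutant and Null and in WT are 0.16 and 0.82 for p53 targets, 0.59 and 0.55 for interferon-stimulated genes and -0.22 and -0.89 for ATF4 targets.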

How the data were processed

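mRNA of HCT116 lines was measured with oligo(dT) selection and paired reads of 100 bases on a BGIseq500, per the labels' protocols. Per the submitters' processing notes, FastQC, STAR and featureCounts from Subread were used on GRCh38.p13; versions, annotation release and counting strand are not given in the sources used here, so overlapping and antisense genes cannot be separated. The deposited values are CPM of reads assigned to 60675 gene ids. Dividing by the smallest step returned whole reads for 100% of values (within 0.05 of a read). Even counts made up 75.8 to 79.5% of values of 2 to 9 reads, which is what separate counting of both mates would give, and the number of fragments may be smaller. Floors cover counting error only.

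Genes were kept by filterByExpr (count minimum 10). The main test was limma-trend with robust variance (limma 3.58.1, edgeR 4.0.16, R 4.3.3) on log2(TMM-scaled CPM + 0.5), line as a block, 5 residual degrees of freedom, adjusted by Benjamini-Hochberg at 0.05. Single lines, the WT comparison and the solvent comparisons had fits of their own with 4, 6 and 8 residual degrees of freedom. The main fit and its edgeR counterpart were tested on simulated data, and the other fits use the same functions. The edgeR and DESeq2 1.42.0 tests on recovered reads were alternatives. The GC slope is each library's slope of log2 value on GC percent (GENCODE 29, 98.7% of tested genes, mean log2 CPM of at least 2).

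Groups came from the labels, which name no batch. Replicate libraries all differed by more than sampling noise. Members and the 29 lists were chosen with earlier results of these data known. Genes were named by rule: up to 12 per direction of at least 5 CPM, filled with uncalled genes by smallest p, up to 4 of smallest p per list, and fixed genes of interest. The called genes under 5 CPM that no list holds, and STAT2, ISG15, CEBPB, TP53I3, PLK2, PIDD1, FDXR and CYFIP2, were named after their values were seen. Promoters came from RefSeq, the first listed per gene. Some genes that the rule names are not reported here.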

Additional observations from a re-analysis of the deposited data

How the results depend on the processing

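The count of genes that differed between irradiation and APR-246 without functional p53, 14 in the main model, was 10 and 13 with pseudocounts of 0.1 and 1, 16 with DESeq2 size factors and 12 with a mean of at least 1 CPM. It was 5 without scaling beyond CPM, 0 with no filter on low values (36449 genes tested), 3 by edgeR, 359 by DESeq2 and 8 in a fit of all 24 libraries. It was 2613 with the GC slope. Without single libraries it ran from 0 to 41, and with the GC slope from 952 to 3569. The cause of these changes was not tested. Replicate numbers did not meet the bar for pairing: deviations of same-numbered libraries correlated at -0.521, -0.441 and -0.256 in the 3 pairs of groups with Null APR-246 and at 0.551, 0.572 and 0.812 in the other 3. A replicate block gave 121 calls, a block within line 92 and the GC slope with a replicate block 2387. Crossing the numbers in Null, chosen after seeing the data, gave 544 calls under the block, and 2 in Null alone.

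Counts of 0 became 29 by DESeq2, 1190 with the GC slope and 1418 with the slope and replicate block in Mutant. In Null they became 29, 930 and 1411, and 2 in the fit of all 24 libraries. For Mutant minus Null they became 1 by DESeq2, 1 with the GC slope and 13 with the slope and replicate block. For the difference from WT they became 1 by DESeq2, 32 with the GC slope, 23 with the slope and replicate block and 4 in the fit of all 24 libraries, and ran from 0 to 17 without single libraries.

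Irradiation against solvent, 1632 calls in the main model, had 1081 with no filter, 3012 by DESeq2, 3819 with the replicate block, 3466 with the block within line, 6890 with the GC slope and 6538 with the slope and replicate block, and 725 to 2168 without single libraries. APR-246 against solvent, 715 calls, had 451, 1693, 1800, 1536, 5916 and 6066 under the same alternatives, 473 in the fit of all 24 libraries, and 212 to 868 without single libraries.

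Named genes with differences near 0 changed sign. HMOX1, at 0.01 in the main model, was at -0.0109 without scaling, -0.0179 by edgeR, -0.0108 by DESeq2, -0.228 with the GC slope and -0.170 with the slope and replicate block. CHAC1, at 0.09, was at -0.0300 with the GC slope and -0.0549 with the slope and replicate block. BMP4 was at 0.00699 with DESeq2 size factors and 0.0150 with a mean of at least 1 CPM. Without single libraries HMOX1 ran from -0.195 to 0.241 (-0.365 to -0.0553 with the GC slope), CHAC1 ran from -0.0322 to 0.253 (-0.227 to 0.157 with the GC slope), BMP4 ran from -0.117 to 0.124 (-0.227 to 0.118 with the GC slope). Likewise MDM2 ran from -0.131 to 0.316 (0.351 to 0.441), CDC25C ran from -0.183 to 0.00294 (-0.244 to -0.113), CCNB1 ran from -0.19 to 0.0883 (-0.296 to -0.0219), ASNS ran from -0.686 to -0.17 (-0.589 to 0.019). Depth limits genes near 0.05 CPM, where 3 reads were the floor.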
